A study of Homo sapiens with 62 samples.

Results

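The genes that code for the proteins of the cytosolic ribosome were taken as 1 set and followed through engineered losses of chromosome arms 1q, 7p and 8q in human cell lines. Members were the protein-coding genes named RPL or RPS and a number, with an A, X or L suffix where there is one, together with RPLP0, RPLP1, RPLP2 and RPSA and without RPS27L. The names picked 83 genes out of the 58735 in the deposited tables, 52 of the large 60S subunit and 31 of the small 40S subunit. RPS27 was the 1 member on 1q, 0 members lay on 7p, RPL7, RPL8, RPL30 and RPS20 lay on 8q, and the other 78 lay elsewhere, with 19q holding 8 of them. Between 80 and 81 members passed the filter on low counts in each comparison. RPL10L, with 0 to 3 counts in a library, passed in none, and RPL3L and RPL39L passed in some.

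The study measured mRNA in 62 libraries of 5 lines that carry a gained arm and in single-cell-derived clones that had lost the extra copy, made by ReDACT, a collection of chromosome-engineering techniques whose versions the labels call NS, TR and CO. A2058 is a melanoma line with gains of 1q, 7p and 8q. It had 4 WT libraries, 4 1q-loss libraries of 2 clones, 6 7p-loss libraries of 3 clones and 4 8q-loss libraries of 2 clones, all clones made with CO. HCT116, a colorectal cancer line with an 8q gain, had 2 WT and 4 8q-loss libraries of 2 CO clones. AGS, a gastric cancer line with a 1q gain, had 1 WT library, 2 libraries of TK+ clones, which carry a TK integrant and keep the gain, and 1 library for each of 5 1q-loss clones, of which clones 1, 4, 6 and 7 were made with NS and clone 11 with CO. A2780, an ovarian cancer line with a 1q gain, had 2 WT, 2 TK+ and 6 1q-loss libraries of 3 NS clones, numbered 2, 5 and 6. MCF10A is a breast epithelial line. It had 2 WT and 8 1q-loss libraries of 4 clones, and the same numbers in cells expressing hRASV12, an activated form of HRAS (hRas below), with clones 1 to 3 made with TR and clone 4 with CO. The labels describe the lost arm as the extra copy of a trisomy in A2058, HCT116 and AGS, and as an extra copy in MCF10A. Going from 3 copies to 2 would leave 66.7% of the control level, a log2 change of -0.58, if mRNA followed copy number. The 2 libraries of a clone are not independent clones, and p-values below measure the spread between libraries.

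A ribosome is built from ribosomal RNA and 1 copy of nearly every ribosomal protein, so the 60S and 40S proteins are needed in matched amounts, and proteins that find no place in a subunit are usually degraded. Most mRNAs of these genes begin with a C followed by an unbroken stretch of pyrimidines, the 5′ terminal oligopyrimidine (TOP) motif, through which mTOR signalling controls their translation together. RPL5 and RPL11 are known for another role: when they are not built into a 60S subunit they bind MDM2 and thereby stabilise p53. Several members have a paralog of related sequence (RPL3L, RPL7L1, RPL10L, RPL22L1, RPL26L1, RPL39L), and most have many processed pseudogenes.

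Library totals ran from 15042068 to 30984036 counts. Members took 9.25% to 11.6% of the counts in HCT116 libraries and 2.86% to 6.74% in libraries of the other lines. In bulk RNA, fewer cells of a kind and less RNA per cell cannot be told apart. Some libraries stood apart in the defining markers of their line. In A2058, SOX10, a transcription factor of the melanocyte lineage, was at 24.4 to 80.6 CPM (counts scaled to a common library size, with edgeR's TMM factors) in the 1q-loss libraries against 473 to 660 in WT. The summed level of 5 melanocyte genes (SOX10, MITF, PMEL, MLANA and TYR) was 42.9 to 132 CPM there against 1664 to 2704 in WT, 919 to 2809 in 7p-loss and 1777 to 2668 in 8q-loss libraries. PECAM1, an endothelial marker, was at 7.05 to 17.4 CPM in 1q-loss and 0.17 to 0.357 in WT. TYR was at 97.1 to 159 CPM in WT, 2.08 to 6.67 in 8q-loss, 557 to 1038 in 7p-loss clone 1 and 0.0984 to 4.97 in 7p-loss clones 2 and 3. The markers of both clones labelled A2058 1q-loss thus differ from those of the line, and whether these libraries are of A2058 was not tested. No value of that comparison can be given without them, and the part of this difference in the results below was not tested. In hRas MCF10A, 1q-loss clone 2 had 547 to 566 CPM of KRT5, a basal keratin, against 3549 to 3582 in hRas WT, and 0.511 to 0.636 CPM of TP63 against 57.7 to 60.5, and its identity was not tested either. In A2780, COL1A2, a fibroblast collagen, was at 360.4 to 375 CPM in WT, 10.9 to 11.2 in TK+, 2567 to 2722 in clone 2, 1304 to 1355 in clone 5 and 11.2 to 11.7 in clone 6. The summed gastric list of AGS was at 5826 to 8059 CPM in the 1q-loss clones against 3808 to 5114 in the controls. The part of these differences in the results was not tested, except that RPS27 and the balance of the subunits in hRas MCF10A are also given without clone 2. Defining markers were at or near 0 in 3 lines: VIL1 and CDH17 in HCT116, CLDN18 in AGS, and PAX8, MUC16 and WT1 in A2780.

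The sequences at the start sites show what most of these genes share. In RefSeq's promoter table (GRCh38.p14), 66 of the 83 members had an entry. An unbroken run of at least 8 C or T bases, on the gene's own strand, touched the 5 bases on either side of the annotated start in 50 of these 66 (75.76%), against 13.65% of all 27305 genes in the table. The same search for runs of A or G found 3.03% of members and 10.17% of all genes. Both subunits had the pyrimidine run, with 20 of 24 genes of the 40S (83.33%) and 30 of 42 of the 60S (71.43%). A run of this kind is a description of the letters and not a test of TOP regulation. The windows below, from 20 bases before to 10 bases after the start, are shown for some of the members described below, with the run in capitals, and RPL27 is shown as 1 of the members with no such run (in capitals, the 2 pyrimidines nearest its start). Of other members described below, the run is 10 bases long in RPL41, 9 in RPS28 and 2 in RPS29.
RPS27, chr1:153990742-153990771, plus strand: gcaggatttccgctttcgCTCCTTTCCggc
RPL28, chr19:55385912-55385941, plus strand: tcgcctcgcccctcgCCTTCCTCTTTCCgt
RPS25, chr11:119018334-119018363, minus strand: ccgtttctgagcagcgCTTCCTTTTTgtcc
RPL11, chr1:23691786-23691815, plus strand: tcggccggaagctccgCTTTCTCTTCCTgc
RPL21, chr13:27251538-27251567, plus strand: cgccgcggccccgCCTCTTTCCTTTCggcc
RPS12, chr6:132814549-132814578, plus strand: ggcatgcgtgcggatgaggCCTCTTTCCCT
RPL22L1, chr3:170870186-170870215, minus strand: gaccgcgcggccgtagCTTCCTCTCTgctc
RPL27, chr17:42998399-42998428, plus strand: cctcaccggggtgaaaggTTagcggaagtg

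Member by member, the genes on the removed arm had the lowest or nearly the lowest fold changes of the set in the comparisons that removed their arm. RPS27 ranked 1 of the members from the bottom in AGS, A2780 and both MCF10A 1q-loss comparisons and 2 of 81 in A2058, and the 4 genes on 8q held the 4 lowest ranks in A2058 8q-loss. In HCT116 8q-loss RPL7, RPL8, RPL30 and RPS20 ranked 2, 3, 6 and 10 of 81, with RPL3L, at a mean of 1.03 CPM in WT, below them. A gene was called at a Benjamini-Hochberg adjusted p under 0.05 in edgeR's quasi-likelihood test over all genes of that comparison. By that rule 16 members fell and 1 rose among 81 in A2058 1q-loss, where 24.3% of all genes tested fell and 25.3% rose (49.6% in all). In AGS 1q-loss 3 of 80 fell, with 7.55% of all genes called and 4.17% lower. In A2058 8q-loss 3 of 81 fell, with 2.03% of all genes called and 1.49% lower. In MCF10A 1q-loss 1 of 81 fell, with 2.04% of all genes called and 1.74% lower. Counts were 0 in A2058 7p-loss (0.908% of all genes), HCT116 8q-loss (0.14%), A2780 1q-loss (11.8%) and hRas MCF10A 1q-loss (0.214%). Unadjusted p was under 0.05 for 32, 1, 0 and 3 members in those 4 comparisons, and DESeq2 called 2, 0, 0 and 0. Counted by ranges, every loss library was below every control library for 17 members in A2058 1q-loss (23.3% of all genes tested), 5 in A2058 7p-loss (2.69%), 4 in A2058 8q-loss (4.76%) and 2 in HCT116 8q-loss (8.29%). It was so for 12 members in AGS (10.6% of all genes), 0 in A2780 (6.65%), 5 in MCF10A (6.53%) and 1 in hRas MCF10A (9.44%). In MCF10A they included RPS27, RPL21, RPS15A and RPSA. The 5 members in A2058 7p-loss were RPL3, RPL10A, RPL22L1, RPL23A and RPS24, those in HCT116 RPL7 and RPS24, and the 1 in hRas MCF10A RPS27. Apart from A2058 7p-loss and AGS, the share of members is below or near that of all genes. The 3 A2058 comparisons share their WT libraries, and the comparisons within MCF10A and within A2780 also share libraries.

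**Figure D1:**
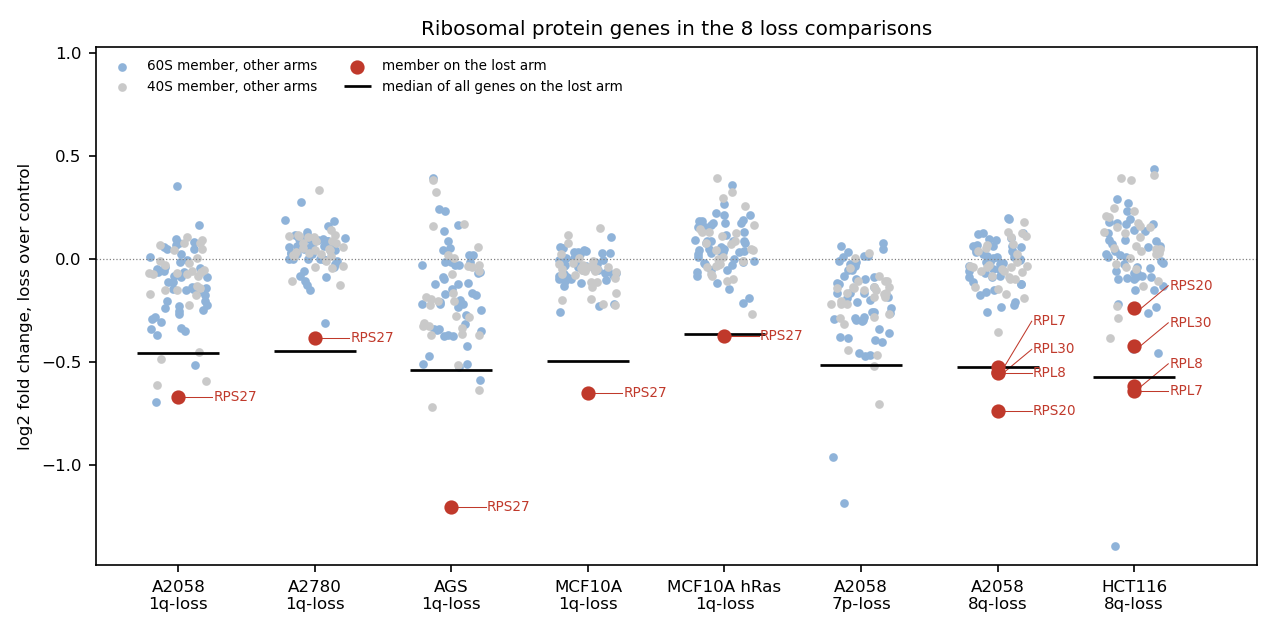
Log2 fold change of each tested ribosomal protein gene (1 point per gene) in the 8 loss comparisons, with genes on the removed arm marked. RPS27 is at -0.67, -1.20, -0.39, -0.65 and -0.37 in the 1q-loss comparisons of A2058, AGS, A2780, MCF10A and hRas MCF10A, below nearly all other members, and the 4 genes of 8q are the lowest in A2058 8q-loss.

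RPS27 (1q, GRCh38 chr1:153990755-153992155, plus strand) codes for a zinc-finger protein of the 40S subunit. Its fall passed the test in A2058, AGS and MCF10A 1q-loss, and its level after loss was 43.4% to 77.3% of control over the 5 comparisons. In A2058 it was at 368, 391, 620.3 and 530 CPM in WT replicates 1 to 4, at 282 and 288 in clone 1 and at 316 and 315 in clone 2. All loss libraries were below all WT libraries, although WT itself spread widely. The mean went from 477 ± 119 (SD, n = 4) to 300.1 ± 17.95 (SD, n = 4), a log2 fold change of -0.67 with SE 0.15 and an edgeR adjusted p of 0.004. This left 62.9% of control, against 72.9% at the median of the 677 tested 1q genes, of which 216 were lower than RPS27 and 59.7% were called lower. The call held in all 20 settings tried, over which the log2 fold change ran from -0.94 to -0.34.

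In AGS, RPS27 fell furthest. The controls were at 787 and 858 CPM in the TK+ clones and 1100.2 in WT, and loss clones 1, 4, 6, 7 and 11 were at 414, 332, 485, 381 and 374. The highest loss clone was well under the lowest control. The mean went from 915 ± 164 (SD, n = 3) to 397 ± 57.2 (SD, n = 5), a log2 fold change of -1.20 with SE 0.16 and an edgeR adjusted p of 0.006, and the call held in all 14 settings. This was 43.4% of control, whereas the 659 tested 1q genes had a median of -0.54 and 50 of them (7.59%) were lower than RPS27, while 32.2% were called lower. Genes within 3 Mb of RPS27 had medians of -0.56 to -0.48 over the clones, so the local 1q level did not reach the value of RPS27.

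In A2780, where 1q positions are in GRCh37 (RPS27 at chr1:153963235-153964626), the difference did not pass the test. RPS27 was at 244 and 227 CPM in WT, at 297 and 182 in TK+, at 206 and 128 in clone 2, at 252 and 106 in clone 5 and at 230 and 167 in clone 6. Loss and control libraries overlapped, and in each of the 5 pairs of libraries the library numbered 2 was the lower. The mean was 237 ± 47.5 (SD, n = 4) in controls and 182 ± 57.9 (SD, n = 6) in loss, a log2 fold change of -0.39 with SE 0.23 and an edgeR adjusted p of 0.320. The median 1q gene was at -0.45 and 48.7% of the 647 tested 1q genes were called lower.

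In MCF10A, RPS27 was at 293 and 255 CPM in WT and between 146 and 239 in the 8 loss libraries, with a median of 165. The groups did not overlap, and 34.6% of the 710 tested 1q genes were called lower. The mean went from 274 ± 26.5 (SD, n = 2) to 174 ± 28.3 (SD, n = 8), a log2 fold change of -0.65 with SE 0.14 and an edgeR adjusted p of 0.022. The call ended without WT replicate 1 (log2 fold change -0.55, adjusted p = 0.477), WT replicate 2 (-0.75, 0.143), clone 2 (-0.60, 0.066) or clone 3 (-0.63, 0.068). Leaving out a WT replicate leaves 1 WT library, which is assumed to vary like the others. In cells expressing hRas it was at 253 and 252 CPM in WT and at 164 to 222 in loss, with a median of 199. These groups did not overlap either, but the log2 fold change of -0.37 (SE 0.10, edgeR adjusted p = 0.199) was not called, like all but 3.47% of the 1q genes. Without clone 2, whose KRT5 and TP63 levels stand apart, it was -0.33 with an adjusted p of 0.255. The difference between the fold changes without and with hRas was itself tested as an interaction, at 0.28 with SE 0.19 and an edgeR adjusted p of 0.999.

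**Figure D2:**
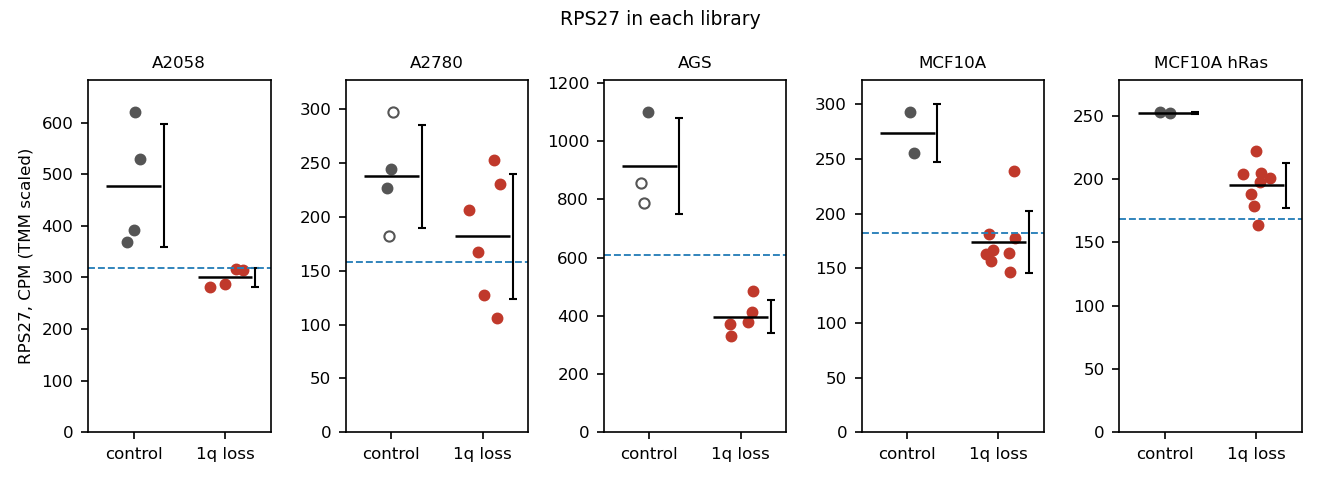
RPS27 in CPM in each library of the 5 1q-loss comparisons (filled grey, WT; open, TK+; red, 1q-loss; bars, group means with SD; dashed line, 66.7% of the control mean). Loss libraries lie below all controls in every line except A2780, where 106 to 252 CPM in loss overlaps 182 to 297 in controls.

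Where 1q was not removed, RPS27 was not called with all libraries in the fit. Its log2 fold change was 0.10 (edgeR adjusted p = 0.869) in A2058 8q-loss, 0.00 in HCT116 8q-loss and 0.03 for A2780 TK+ against WT. The last value rests on TK+ libraries at 293 and 179.6 CPM, and it was -0.37 without TK+ replicate 1 and 0.34 without TK+ replicate 2, both called in fits that take the spread of the 1 TK+ library left from the others. In A2058 7p-loss it was -0.47, at 320 to 401 CPM against 369 to 627 in WT, which overlap, and the adjusted p of 0.201 did not pass. Set against the median of the other members in the same clone, RPS27 was at -0.62 and -0.48 in the A2058 1q-loss clones and at -1.17 to -0.84 in AGS. It was at -0.44, -0.53 and -0.43 in A2780 clones 2, 5 and 6, at -0.66 to -0.48 in MCF10A and at -0.54 to -0.34 in hRas MCF10A. By this measure RPS27 was below the median of the other members in every 1q-loss clone. Taken per library, all loss libraries lay below all controls in A2058, AGS, MCF10A and hRas MCF10A, but 4 of 6 did in A2780, where the highest loss library was at -0.20 and the lowest control at -0.23.

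On 8q, A2058 clones that lost the extra copy had lower levels of all 4 members, of which RPS20, RPL30 and RPL7 passed the test and RPL8 did not. RPS20, a protein of the head of the 40S subunit, was at 600.4, 561, 616 and 566 CPM in WT, at 331 and 302 in clone 1 and at 398 and 375 in clone 2. The groups were far apart, from 586 ± 26.9 (SD, n = 4) to 351 ± 43.0 (SD, n = 4), a log2 fold change of -0.74 with SE 0.09 and an edgeR adjusted p of 0.005. RPL30, a 60S protein, was at 289, 303, 348 and 289 CPM in WT and at 191, 189.5, 229 and 231 in loss, a log2 fold change of -0.55 with SE 0.10 and an edgeR adjusted p of 0.020. RPL7, also of the 60S, was at 766, 779, 911 and 832 CPM in WT and at 509, 503, 657 and 619 in loss, a log2 fold change of -0.52 with SE 0.11 and an edgeR adjusted p of 0.037. In neither gene did loss and WT libraries overlap. RPL8, which sits near the peptidyl transferase centre, was at 1433, 1426, 1742 and 1796 CPM in WT and at 786, 1038, 1195 and 1341 in loss. These did not overlap, but they spread more, and the log2 fold change of -0.55 with SE 0.16 had an edgeR adjusted p of 0.136. The 342 tested 8q genes had a median of -0.53, with 38.3% called lower.

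With 4 libraries a side, the 8q calls were not firm. The RPS20 call ended with the replicate number as a block (log2 fold change -0.72, adjusted p = 0.073), with WT replicates 1 and 2 as the only controls (0.060) and with WT replicates 3 and 4 as the only controls (0.127). No A2058 loss library is numbered 3 or 4, so the block sets loss libraries against WT replicates 1 and 2 alone. It is thus nearly the same check as the fit with only those controls. The RPL30 call ended without clone 1 replicate 2 (0.059), WT replicate 1 (0.055), WT replicate 2 (0.080), WT replicate 3 (0.059) or all of clone 1 (0.051), with clone libraries summed (0.065), with the replicate block (0.158) and with WT replicates 1 and 2 (0.138) or 3 and 4 (0.235) as the only controls. The RPL7 call ended in 12 of 19 settings, which include leaving out any 1 WT library (0.085 to 0.113), either clone 1 library (0.073 and 0.092) or clone 2 replicate 2 (0.056). The direction was down in all of these. Without clone 2 the count of called members was 5, and without clone 1 it was 1.

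In HCT116 none of the 8q members passed the test, and the clones differed, with clone 2 lower than clone 1 in all 4 genes. RPL7 was at 1187 and 1101 CPM in WT, at 950.3 and 818 in clone 1 and at 593 and 573 in clone 2, the 1 gene of the 4 whose groups did not overlap (log2 fold change -0.64, SE 0.27, edgeR adjusted p = 0.827). RPL8 was at 6255 and 4191 CPM in WT, 5029 and 3870 in clone 1 and 2091 and 2609 in clone 2 (-0.62, SE 0.33, edgeR adjusted p = 0.987). RPL30 was at 478 and 481 CPM in WT, 556 and 367 in clone 1 and 252 and 259 in clone 2, and its log2 fold change was -0.42 (SE 0.33). In all 3 genes clone 2 was below both WT libraries, and the RPL8 and RPL30 libraries of clone 1 overlapped WT. RPS20 was at 641 and 670 CPM in WT, above both in clone 1 at 877 and 775, and far below in clone 2 at 290 and 278. Its log2 fold change over both clones was -0.24 with SE 0.44. The 328 tested 8q genes had a median of -0.57 in this comparison with 0.0% called lower, and the arm was down in both clones, at -0.57 and -0.63.

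The 8q genes lay on top of a shift of the whole set that differed between clones. Members off 8q had a median of -0.21 in A2058 8q-loss clone 1 (74 of 77 below 0) and 0.16 in clone 2 (7 of 77 below 0). In HCT116 it was 0.28 in clone 1 (9 of 77 below 0) and -0.27 in clone 2 (63 of 77 below 0). Taking off this median brought the clones closer. In A2058, RPS20 went from -0.89 and -0.60 to -0.68 and -0.76 in clones 1 and 2, RPL7 from -0.70 and -0.36 to -0.49 and -0.52, RPL30 from -0.69 and -0.42 to -0.48 and -0.57, and RPL8 from -0.82 and -0.33 to -0.61 and -0.49. In HCT116, RPL7 went from -0.37 and -0.97 to -0.66 and -0.70, RPL30 from -0.09 and -0.91 to -0.37 and -0.64, and RPL8 from -0.21 and -1.13 to -0.50 and -0.86. RPS20 stayed apart there, at 0.05 in clone 1 and -0.94 in clone 2, while its 9 expressed neighbours within 3 Mb had medians of -0.31 and -0.60. The spread over clones was smaller after the subtraction in 13 of 13 cases of a member on a removed arm, RPS27 included. The subtraction uses the members themselves and is a description, without a test.

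**Figure D3:**
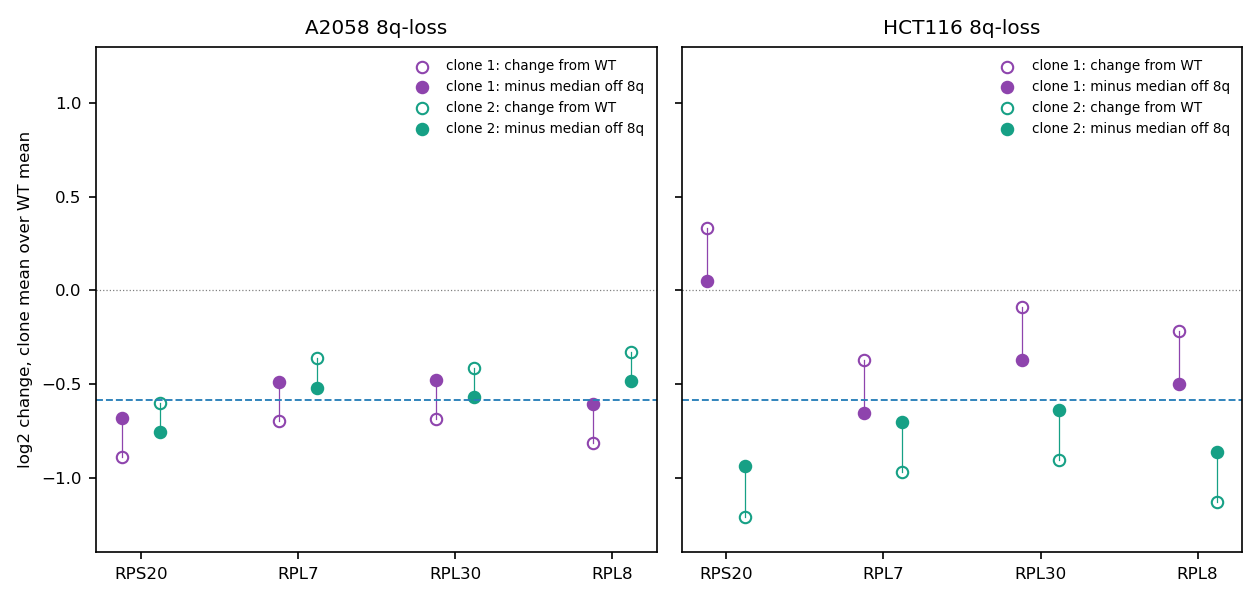
Log2 change of the 4 ribosomal protein genes of 8q in each 8q-loss clone (open, change from WT; filled, the same minus the median of the members off 8q in that clone; dashed line, -0.58). After subtraction the A2058 values lie between -0.76 and -0.48, and in HCT116 only RPS20 of clone 1, at 0.05, is near 0.

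No ribosomal protein gene lies on 7p, and 0 of 81 members were called in A2058 7p-loss while 72 of the 81 had values below 0, with a median log2 fold change of -0.17 against a median near 0.00 for all genes. The medians of clones 1 to 3 were -0.31, -0.15 and -0.11. RPL22L1, the paralog of RPL22, was at 141, 112, 103 and 101 CPM in WT replicates 1 to 4 and between 41.0 and 84.7 in the loss libraries, with a median of 51.4. Clone 1 was lowest, at 42.4 and 41.0, and no loss library reached a WT one. The mean went from 114 ± 18.4 (SD, n = 4) to 58.6 ± 19.3 (SD, n = 6), a log2 fold change of -0.96 with SE 0.22. Its edgeR adjusted p of 0.081 missed the threshold, and it was called in 3 of 23 settings. RPL22 itself had a log2 fold change of 0.01.

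RPL23A, a 60S protein at the exit of the nascent-chain tunnel that lies on 17q (GRCh38 chr17:28719393-28724359), had the lowest values of any tested member in single A2058 clones. In A2058 WT it was at 639, 650.2, 592 and 559.7 CPM. In 1q-loss clone 1 it was at 182 and 159, a log2 change of -1.84, and in clone 2 it was at 555 and 614, a change of -0.06. In 7p-loss clone 1 it was at 446 and 494, but in clone 2 at 175 and 162 and in clone 3 at 182 and 161, changes of -0.38, -1.86 and -1.84. RPL23A was thus far below WT in 3 clones, of which 1 had lost 1q and 2 had lost 7p, and not in the other 1q-loss clone. Over all clones the log2 fold change was -0.69 (SE 0.39, edgeR adjusted p = 0.165) in 1q-loss and -1.18 (SE 0.35, edgeR adjusted p = 0.190) in 7p-loss, neither of them called, and in 8q-loss it was -0.01.

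The genes around RPL23A were low in the 3 clones where it was low. In 7p-loss clones 2 and 3 a run of 24 neighbouring expressed genes, from WSB1 to NUFIP2 (GRCh38 chr17:27294076-29294118), was past 1.5-fold lower in every gene, with medians of -1.24 and -1.26. The next expressed genes outside the run were at -0.24 and -0.28 (C17orf51) on one side and at -0.05 and 0.03 (TAOK1) on the other. In 1q-loss clone 1 the unbroken run held 15 genes, from SPAG5 to NUFIP2 (GRCh38 chr17:28577565-29294118), with a median of -1.69, next to ALDOC at 0.04 and TAOK1 at 0.11. ALDOC alone interrupted it, since the 11 expressed genes beyond, from PIGS to WSB1, were low too, between -1.99 (SARM1) and -0.86 (PIGS), so that the low stretch reached WSB1 as in the 7p-loss clones. All 3 runs ended at the same gene, NUFIP2. The whole of 17q was at -0.03, -0.02 and -0.05 in 7p-loss clones 2 and 3 and 1q-loss clone 1, so the low values were local. Some of these genes were also low in the other 1q-loss and 7p-loss clones. In 1q-loss clone 2, where RPL23A was near WT and RAB34 next to it at 0.01, these included TMEM97 (-1.25), FAM222B (-1.23), DHRS13 (-1.17) and MYO18A (-1.03). In 7p-loss clone 1, where RPL23A was at -0.38, they included TLCD1 (-1.34) and IFT20 (-0.86). DNA copy number of this region was not analysed here.

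**Figure D4:**
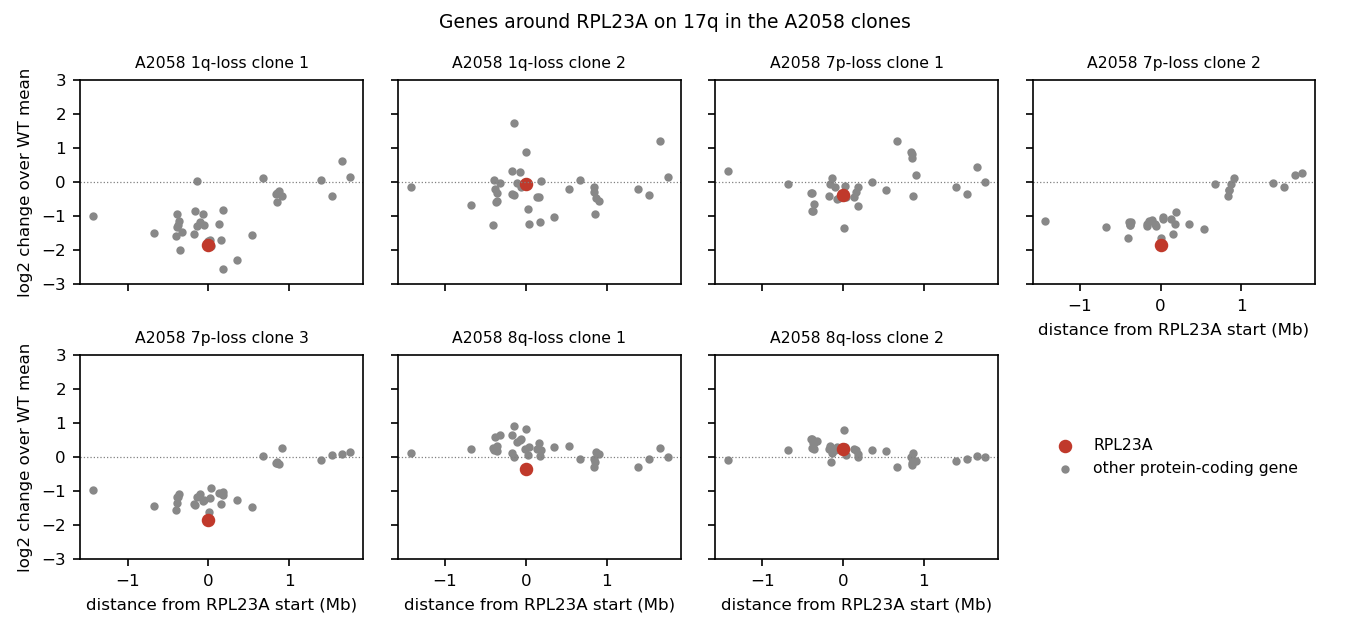
Log2 change from WT of expressed genes by distance in Mb from the start of RPL23A, in the A2058 1q-loss and 7p-loss clones. The runs of low genes in 7p-loss clones 2 and 3 and in 1q-loss clone 1 have medians of -1.24, -1.26 and -1.69 and end on the same side at the same gene, and in 1q-loss clone 1 further low genes follow beyond ALDOC at 0.04.

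Outside the removed arms, A2058 1q-loss was the comparison in which most members passed the test. RPL28, a 60S protein, rose from 618, 582, 670.1 and 608 CPM in WT to 759, 903, 747 and 751 in loss, with no overlap. Its log2 fold change was 0.35 (SE 0.08, edgeR adjusted p = 0.003), and it was called in all 20 settings. RPL28 overlaps UBE2S, so without strand-aware counting reads of the 2 genes may not be told apart. The 15 members off 1q that fell lay between -0.61 and -0.16. RPS25, a 40S protein used by some viral and cellular internal ribosome entry sites, was at 333, 322, 431 and 413 CPM in WT and at 273, 215, 278 and 303 in loss, a log2 fold change of -0.49 with an edgeR adjusted p of 0.007. With WT replicates 1 and 2 as the only controls, and with the replicate block, the 2 members called were RPS27 and RPL28. All other calls, RPS25 included, ended there. The 2 lowest of the 15 were RPS29 and RPS28. RPS29 was at -0.61 (SE 0.21, edgeR adjusted p = 0.033), at 90.6, 90.8, 181 and 159.8 CPM in WT and 89.9, 78.1, 86.4 and 87.4 in loss. RPS28 was at 48.6, 52.0, 86.5 and 75.5 CPM in WT and 45.4, 39.7, 42.8 and 45.9 in loss, a log2 fold change of -0.59 (SE 0.17, edgeR adjusted p = 0.013), and its pseudogenes hold more counts than RPS28 itself. In both genes WT replicates 3 and 4 were high, and loss was close to WT replicates 1 and 2.

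The count of called members in A2058 1q-loss depended on which libraries were used. With WT replicates 1 and 2 as the only controls 2 members of 81 were called (2.47%), where 40.4% of all genes were, and with WT replicates 3 and 4 the count was 28 (34.6%), where 39.8% of all genes were. It was 21 without WT replicate 1, 18 without WT replicate 2, 7 without WT replicate 3 and 5 without WT replicate 4. It was 10 and 4 without the first and second library of clone 1, 6 and 11 without those of clone 2, 4 without clone 1 and 9 without clone 2. Summing the libraries of each clone gave 3, where 39.8% of all genes were called, and with the replicate number as a block it was 2, where 41.0% were. The block rests on WT replicates 1 and 2 alone, so it is not a separate check from the fit with only those controls. In the fits without 1 library or clone 41.2% to 46.9% of all genes were called. The 17 members called of 81 are a smaller share than the 49.6% of all genes, and off 1q the share was 16 of 80 members against 48.7% of genes.

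Of RPL11 and RPL5, the pair that binds MDM2, RPL11 passed the test in 1 loss comparison and RPL5 in none. RPL11 was at 437, 435, 631 and 566 CPM in A2058 WT and at 424, 384, 394 and 398 in 1q-loss, with no overlap, and fell by 0.37 on the log2 scale (edgeR adjusted p = 0.022). With WT replicates 1 and 2 as the only controls the log2 fold change was -0.12 and the adjusted p 0.154. RPL11 was at -0.36 (edgeR adjusted p = 0.229) in 7p-loss and between -0.03 and 0.16 in the other 6 loss comparisons. RPL5 was between -0.12 and 0.13 in the 8 loss comparisons and was called in none.

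In AGS 1q-loss, 2 members off 1q fell, where 6.34% of all genes off 1q were called in either direction. RPS15A, a 40S protein, was at 146 and 176 CPM in the TK+ clones, 184 in WT and 113, 134, 118, 106 and 119 in the loss clones, which do not overlap. Its log2 fold change was -0.51 (SE 0.12, edgeR adjusted p = 0.031), and the call ended without clone 1, clone 6, clone 7, TK+ clone 2 or WT, at adjusted p from 0.060 to 0.139. RPL41, the shortest protein of the set, was at 734 and 875 CPM in the TK+ clones, 951 in WT and 609, 617, 657, 564 and 632 in loss, again with no overlap. Its log2 fold change was -0.47 (SE 0.12, edgeR adjusted p = 0.045), and the call ended in 8 settings at adjusted p from 0.061 to 0.186. DESeq2 called 7 members. Leaving out clone 11 gave 6 calls, and 1 call was made without clone 1, clone 6, clone 7, TK+ clone 2 or WT. Over the 8 loss comparisons 21 members were called at least once, and 2 were called lower in more than 1: RPS27 in 3 and RPL41 in 2.

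The median of the members off the removed arm was near 0 in some clones and shifted in others. Off-arm medians over the comparisons were -0.09 in A2058 1q-loss (61 of 80 below 0), -0.17 in A2058 7p-loss, -0.02 in A2058 8q-loss (45 of 77), 0.04 in HCT116 8q-loss (31 of 77) and -0.17 in AGS 1q-loss (62 of 79). They were 0.05 in A2780 (21 of 80), -0.04 in MCF10A (63 of 80) and 0.05 in hRas MCF10A (27 of 80). With WT replicates 1 and 2 as the only controls the median was -0.0036 in A2058 1q-loss and -0.08 in 7p-loss, with WT replicates 3 and 4 it was -0.17 and -0.25, and with the replicate block it was -0.0052 and -0.08. The block in A2058 also rests on WT replicates 1 and 2 alone. In AGS it was -0.08 without WT. Over all alternatives the median took both signs in A2058 8q-loss (-0.21 to 0.15), HCT116 (-0.27 to 0.26), A2780 (-0.02 to 0.13) and MCF10A (-0.11 to 0.01), and in hRas MCF10A it ran from 0.0084 to 0.10. The lowest and highest came without clone 2 and clone 1 in A2058 8q-loss, without clone 1 and clone 2 in HCT116, without clone 6 and clone 2 in A2780, and without WT replicate 2 and WT replicate 1 in both MCF10A comparisons. Per clone the medians were -0.29, -0.29, -0.05, -0.15 and -0.10 in AGS clones 1, 4, 6, 7 and 11, and -0.09, 0.02 and 0.18 in A2780 clones 2, 5 and 6. In MCF10A clones 1 to 4 they were 0.01, -0.18, -0.06 and -0.01, and in hRas MCF10A they were 0.09, 0.01, 0.11 and -0.01. The control libraries of each comparison, measured the same way, ran from -0.12 to 0.15 in AGS, -0.13 to 0.17 in A2780, -0.06 to 0.06 in MCF10A, -0.03 to 0.03 in hRas MCF10A, -0.09 to 0.09 in HCT116 and -0.10 to 0.14 in A2058 1q-loss. Averaged over libraries, clones outside the range of their own control libraries were AGS clones 1, 4 and 7, A2780 clone 6, MCF10A clones 2 and 3, hRas MCF10A clones 1 and 3, both HCT116 clones and, in A2058, all 3 7p-loss clones and both 8q-loss clones, several of them by little. Single libraries of these lay inside it: A2780 clone 6 replicate 2 (0.05), MCF10A clone 3 replicate 1 (-0.0065) and replicate 1 of 7p-loss clones 2 and 3 (-0.09 and -0.02). A2780 clone 5, inside on average, had libraries on either side of its controls, at 0.31 and -0.25. MCF10A clone 1 did too, at 0.08 and -0.07.

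**Figure D5:**
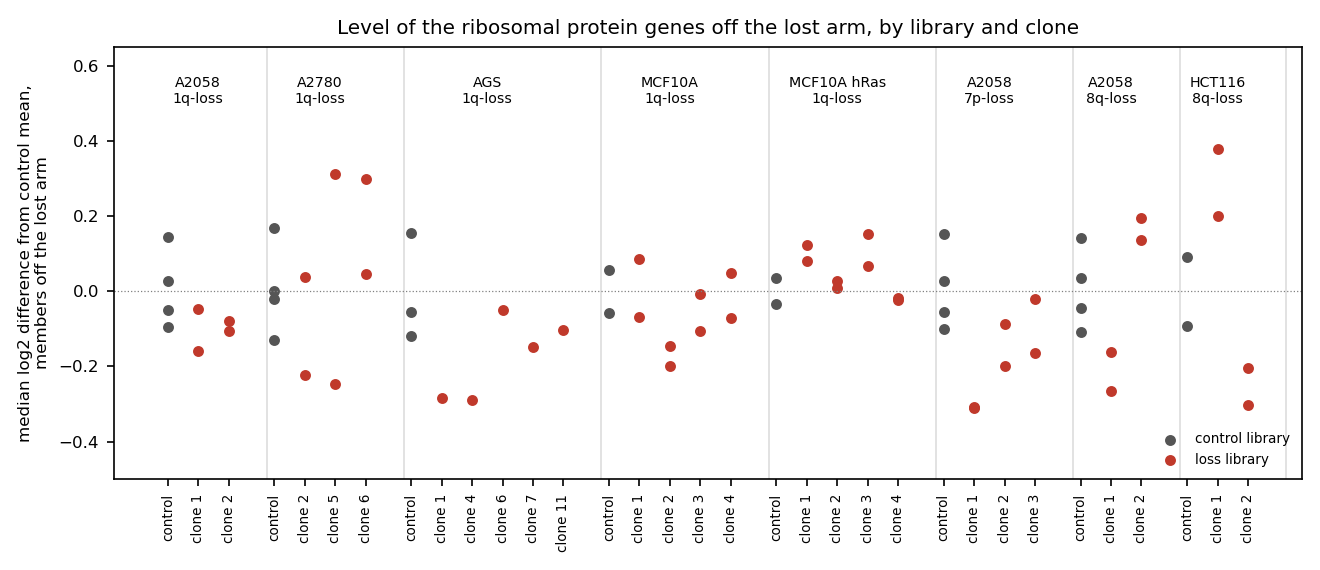
Median log2 change of the members off the removed arm in each library (1 dot per library), by clone and comparison. The 2 clones of A2058 8q-loss lie on opposite sides of 0 at -0.21 and 0.16, as do those of HCT116 8q-loss at 0.28 and -0.27.

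Members on other arms that had shifted in single clones mostly had the sign of that arm. Outside the removed arms, 21 combinations of clone and arm were shifted by over 0.2 (log2) the same way in every library, beyond any control, and 15 of these arms held a member. Of the 35 member values on them, 32 had the sign of the arm. Of those, 28 lay beyond the range of the clones of the comparison in which that arm was not shifted. The arms were picked for their shift, and the share of all their genes with that sign was not counted. Clone 4 of MCF10A enters with and without hRas. Members off the removed arm were themselves shifted in some of these clones. Their median was -0.21 in A2058 8q-loss clone 1, -0.31 in 7p-loss clone 1, -0.29 in AGS clones 1 and 4 and -0.27 in HCT116 clone 2. On 19q, which holds 8 members, MCF10A clone 4 was at 0.44 and hRas MCF10A clone 4 at 0.58. All 8 members were above 0 in both, with RPS9 at 0.09 and RPL28 at 0.46 in the former, and RPS9 at 0.13 and RPL28 at 0.67 in the latter. RPL21, the 1 member on 13q, was at -0.71 in A2058 8q-loss clone 1, -0.56 in AGS clone 1 and -0.68 in AGS clone 4, where 13q was at -0.40, -0.42 and -0.39. RPL26 was at -0.73 in A2058 7p-loss clone 1 with 17p at -0.53, and RPS12 was at 0.54 in A2780 clone 6 with 6q at 0.32. The exceptions include RPL21 at -0.28 and RPL37 at -0.51 in HCT116 clone 2, where 13q was at 0.24 and 5p at 0.22. Local cases such as RPL23A were few: 61 values of a member in a clone were past 1.5-fold in every library, 54 of them had at least 5 expressed neighbours within 1 Mb, and in 4 of these the median neighbour was past 1.5-fold on the same side.

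The balance of the subunits, taken as the log2 ratio of the summed CPM of 60S to 40S members, overlapped between loss and control in 6 of the 8 loss comparisons. In HCT116 it was 0.739 ± 0.002 (SD, n = 2) in WT and 0.614 ± 0.031 (SD, n = 4) in 8q-loss, a difference of -0.13 with no overlap. Of the 4 members lost on 8q, 3 belong to the 60S and 1 to the 40S, and without the members of 1q and 8q the values were 0.629 and 0.551, still with no overlap. In hRas MCF10A it was 0.711 ± 0.001 (SD, n = 2) in WT and 0.748 ± 0.028 (SD, n = 8) in 1q-loss without overlap, but the difference of 0.04 was 0.02 without clone 2, and the ranges overlapped once RPS27 and the 8q members were left out. In the other 6 loss comparisons the difference was between -0.02 and 0.04. The result depends on the measure. By the difference of the median log2 levels of 60S and 40S members, which gives each gene equal weight, AGS was at -0.21 in controls and -0.0049 in 1q-loss, a difference of 0.20 with no overlap, and A2058 1q-loss differed by -0.08 and HCT116 by -0.21, both with no overlap. By this measure the ranges of hRas MCF10A overlapped, and the sign turned in A2058 8q-loss (0.05), A2780 (-0.03) and MCF10A 1q-loss (-0.03). The share of all counts taken by the members overlapped between loss and control in all 8 comparisons, for example 4.61% ± 0.372 (SD, n = 4) in A2058 WT and 4.22% ± 0.150 (SD, n = 4) in 1q-loss, and 6.02% ± 0.666 (SD, n = 3) in AGS controls and 5.28% ± 0.363 (SD, n = 5) in 1q-loss.

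The paralogs were at different levels in the 5 lines, which were scaled separately. Per kb of exon, RPL22L1 in controls was at 51.9 CPM per kb in A2058, 147 in HCT116, 69.2 in MCF10A, 14.9 in AGS and 6.56 in A2780. RPL22 was at 47.7, 30.9, 59.7, 56.7 and 94.6 CPM per kb in these lines. RPL22L1 was above RPL22 in HCT116 and below it in AGS and A2780, beyond the spread between control libraries. RPL7L1 was expressed in every line, at 104 to 370.2 CPM, RPL26L1 at 22.6 to 53.5, and RPL39L at 14.5 in A2058, 29.4 in A2780 and 7.1 in MCF10A. RPL3L was at 1.03 CPM in HCT116 WT and 0.456 in A2780 controls, and it was filtered out in the other lines. None of these paralogs was called in a loss comparison. Per kb of transcript, the median member stood at 298 to 835 CPM per kb in controls of the lines.

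Related gene lists give the setting. Translation factors, ribosome biogenesis factors (48 genes) and mitochondrial ribosomal proteins (78) were followed alongside. The list called translation factors here (18 genes) also takes in ribosomal components outside the name rule. In A2058 8q-loss, where 38.3% of the 8q genes were called lower and 2.03% of all genes were called, all called genes of the 3 lists lay on 8q and fell: PABPC1 (-0.64), EIF3E (-0.54) and EIF3H (-0.58) among translation factors, RRS1 (-0.87), BOP1 (-0.55) and UTP23 (-0.52) in biogenesis, and MRPS28 (-0.74), MRPL15 (-0.50) and MRPL13 (-0.49). In MCF10A 1q-loss (34.6% of the 1q genes called lower, 2.04% of all genes called) all 8 called genes lay on 1q and fell, from HEATR1 (-0.79), a biogenesis factor, to NVL (-0.58). In A2058 7p-loss, where 27.8% of the 252 tested 7p genes and 0.804% of all genes were called lower, 2 mitochondrial ribosomal proteins fell, among them MRPL32 on 7p (-0.65, edgeR adjusted p = 0.005).

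In AGS 1q-loss the biogenesis factors and mitochondrial ribosomal proteins off 1q were mostly above 0, while 62 of 79 ribosomal protein genes off 1q were below 0. All 45 biogenesis factors off 1q were above 0, with a median of 0.29 and 9 called higher, where 3.38% of all genes were, and 62 of 71 mitochondrial ribosomal proteins off 1q were above 0, with a median of 0.23 and 6 called higher. Of the translation factors 0 of 17 were called, with 6 below 0 and a median of 0.09. The median of all genes tested was 0.01, and the ribosomal protein genes off 1q were at -0.17. In A2058 1q-loss 13 biogenesis factors rose and 6 fell, and 9 mitochondrial ribosomal proteins rose and 26 fell, where 49.6% of all genes were called. In A2780 1q-loss 2 of 3 biogenesis factors and 4 of 4 mitochondrial ribosomal proteins tested on 1q fell, where 48.7% of 1q genes were called lower and 11.8% of all genes were called. Off 1q, 1 translation factor fell, 2 biogenesis factors rose and 1 fell. In hRas MCF10A the 1 called gene of the 3 lists was HEATR1 (-0.90, edgeR adjusted p = 0.021), which lies on 1q, and 44 of 48 biogenesis factors were below 0, with a median of -0.26. In HCT116, where edgeR called 0.14% of all genes, 0 genes of the 3 lists were called, with 2, 1 and 1 genes of the translation, biogenesis and mitochondrial lists at an unadjusted p under 0.05, all of them on 8q.

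Comparisons without a loss moved few members. A2780 TK+ against WT called 0 of 80 (11.2% of all genes; 2 at unadjusted p under 0.05; 27 of 81 without TK+ replicate 1, where 21.1% of all genes were called, and 53 of 81 without TK+ replicate 2, where 19% were, each leaving 1 TK+ library that is assumed to vary like the others), MCF10A hRas WT against WT 0 of 81 (1.62%; 1), and hRas against no hRas within the MCF10A 1q-loss clones 0 of 81 (1.2%; 12). In the last of these 74 of 81 members were above 0, with a median of 0.09. Neither that fit nor the interaction below had a term for the clone, although clones carry the same numbers with and without hRas. Differences between clones thus count as spread in both. The interaction of 1q loss and hRas called 0 of 81 members and 0.0% of 16492 genes (0 members at unadjusted p under 0.05), with a median of 0.11 over members against 0.02 over all genes.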

How the data were processed

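Groups of the 62 mRNA libraries follow the cell line, genotype and hRas status in the labels. The authors' deposited tables hold raw counts per gene, whole numbers made from reads aligned with HISAT2 2.0.5 and counted with featureCounts 1.5.0-p3 on hg38, per the submitters' processing notes. Whether counting used the strand is not given in the sources used here. The A2780 tables list 48162 genes with GRCh37 coordinates. Their positions are given in that build. Each loss group was compared with the libraries of its line that keep the gain (WT, and TK+ in AGS and A2780), using only those libraries in the fit.

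Low-count genes were removed by edgeR 4.0.16 (filterByExpr, minimum count 10, total 15). Library sizes were scaled by TMM, and edgeR's quasi-likelihood F-test gave p-values, which were adjusted over all genes by the Benjamini-Hochberg method. SE is the log2 fold change over the square root of F. The procedure was tested on simulated data. Changes per library and clone are log2 CPM (prior count 2) minus the control mean. Genes were placed on arms by their midpoint. An arm was followed where it had at least 30 tested genes. Alternatives were DESeq2 1.42.0, RLE size factors, TMM over genes that are neither members nor on the removed arm, a filter on mean CPM (1 or more) or none, clone sums, the replicate number as a block and leaving out libraries or clones. R was 4.3.3, limma 3.58.1, Python 3.11.15, numpy 2.4.6, pandas 2.3.3 and matplotlib 3.10.9.

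The members, lists and tests were chosen with earlier results of these data known. The genes given by name are members on a removed arm, per comparison the 2 called members off it with the largest increase and the 2 with the largest decrease, RPL5, RPL11, the paralogs, members on another shifted arm, and genes of the 3 lists on the removed arm. RPS25, RPL23A and RPL27 were chosen after their values were seen. Reads that match pseudogenes could be lost to them: 1149 pseudogenes are named for 77 members, and their counts exceed the member's own for RPL9, RPS10 and RPS28. For RPS27 they come to 14 counts in all. For RPL7, also on a removed arm, the pseudogene counts come to 28.6% of its own. For RPL26 and RPS2 they come to 38.1% and 21.6%. For RPS20, RPL30 and RPL8 they come to 1.05% or less. The part of such reads in the fold changes was not tested. No pair among 126 of the same group or clone held identical values. Replicate numbers deviated together in MCF10A 1q-loss, where every pair correlated at 0.19 to 0.48. The blocked count there was 1, as without the block. The 2 A2058 1q-loss clones also correlated with WT of the same number, at 0.20 and 0.30, but 2 pairs do not meet the criterion of 3. Single pairs were higher elsewhere, but not every pair: they ran from -0.21 to 0.61 in A2780 1q-loss and from -0.34 to 0.60 in HCT116 8q-loss. Values of some members are not reported here.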

Additional observations from a re-analysis of the deposited data

Results flagged for a closer look

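RPS27 in MCF10A 1q-loss was at 238.865 CPM in clone 1 replicate 1, far above the other 7 loss libraries at 146.465 to 181.336 CPM. It was 1 of 36 sets of libraries tried for such a gap, and chance gives about 1 in 20. The medians of the members off the removed arm, averaged over the libraries of a clone, lay on opposite sides of 0 in clones of 1 comparison, at 0.1652 in A2058 8q-loss clone 2 and -0.213813 in clone 1, and at 0.289343 in HCT116 clone 1 and -0.253744 in clone 2. In hRas MCF10A they were 0.101205, 0.0171416, 0.110173 and -0.0207934 in clones 1 to 4. RPS20 went in opposite directions in the 2 HCT116 clones, at 0.330818 in clone 1 and -1.20818 in clone 2. These differences between clones were not tested.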

How the results depend on the processing

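With the replicate number as a block, the count of called members was 2 in A2058 1q-loss, 0 in A2058 8q-loss, 2 for A2780 TK+ against WT and 1 for hRas WT against WT. In A2058 the block rests on WT replicates 1 and 2 alone, as does the fit with those as the only controls. With the libraries of each clone summed it was 3 in A2058 1q-loss and 1 in A2058 8q-loss. With WT replicates 1 and 2 as the only controls it was 2 in A2058 1q-loss and 0 in 8q-loss, and with WT replicates 3 and 4 it was 28, 2 in 7p-loss and 0 in 8q-loss. DESeq2 called 2 in A2058 7p-loss, 7 in AGS 1q-loss and 1 for hRas WT. Without a filter 1 was called for A2780 TK+ and 1 for hRas WT. Leaving out 1 library or clone gave 4 to 21 called in A2058 1q-loss, 0 to 2 in 7p-loss, 1 to 5 in 8q-loss, 1 to 6 in AGS, 0 to 1 in MCF10A and 0 to 53 for A2780 TK+, of which 27 came without TK+ replicate 1 and 53 without TK+ replicate 2 (21.1% and 19% of all genes called), each leaving 1 TK+ library whose spread is taken from the others.

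The off-arm median of A2058 1q-loss was -0.00524 with the block, -0.003639 with WT replicates 1 and 2 and -0.166574 with WT replicates 3 and 4. That of hRas WT ran from -0.0915 to 0.0474 with a library left out. The difference in the log2 ratio of 60S to 40S, taken by the median over members, was -0.075268, -0.031028 and 0.052197 in A2058 1q-, 7p- and 8q-loss, -0.213143 in HCT116, -0.0316712 in A2780 1q-loss, 0.204186 in AGS, -0.025495 in MCF10A and 0.003575 in hRas MCF10A. It was -0.037281 for A2780 TK+, 0.090609 for hRas WT and 0.119679 for hRas within 1q-loss. Chosen after seeing the data, leaving out clone 2 of hRas MCF10A 1q-loss gave a summed ratio difference of 0.023. In MCF10A 1q-loss the summed ratio ran from 0.011 to 0.055 with a library left out. Against A2780 WT, the log2 fold change of RPL23A, A2780 TK+ was 0.27429 and the log2 fold change of RPS27, A2780 TK+ was -0.371248 without TK+ replicate 1, the reverse of their signs with it. With a library left out, the former ran from -0.471772 to 0.365636 and the latter from -0.371248 to 0.33946. The cause was not tested. The block was not run in AGS, nor were clone sums, since each clone has 1 library. Of 1348 values for single members, 1262 kept direction and side of the threshold, 65 lost the call, 19 gained it and 2 reversed. With 2 controls in HCT116 and MCF10A, the number of libraries limits the precision.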

Other observations

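The members were split by coding length into the shortest (28 genes, 75 to 405 bases), the middle (27 genes, 405 to 576 bases) and the longest (28 genes, 582 to 1281 bases). Off the removed arm, the shortest and longest had median log2 fold changes of -0.16 and -0.05 in A2058 1q-loss, -0.30 and -0.11 in A2058 7p-loss and -0.33 and -0.06 in AGS 1q-loss. Across members, Spearman's rho between coding length and log2 fold change was 0.39, 0.51 and 0.39 in these 3 comparisons. Members share libraries and are not independent, so no p is given. Other genes of the same length classes had medians of -0.03 to 0.08 in these comparisons. In the other comparisons rho was 0.29 in HCT116, 0.11 in A2780, 0.09 in A2058 8q-loss, -0.02 in MCF10A and -0.20 in hRas MCF10A 1q-loss, where the shortest were at 0.08 and the longest at 0.02. It was -0.14 for A2780 TK+, 0.13 for hRas WT, -0.34 for hRas within 1q-loss and -0.31 for the interaction, so the direction was not shared.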
